A study of Homo sapiens with 2 samples.

Results

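The genes described here encode actin and the proteins that assemble, cap, branch, cross-link and pull on actin filaments, together with kinases that control them. The set held 46 gene names chosen for that function and not for their values on these arrays. Earlier results of these data were known when the set was chosen. All 46 had at least 1 probe among the 30484 gene names on the array, and 45 could be measured, out of 17230 gene names measured in all. The cells were HEK-293, a human embryonic kidney line that grows attached to plastic. One culture condition received 75 nM of a scramble oligo (control) and the other 75 nM of a miR-204 mimic (a synthetic RNA that acts like the mature microRNA), and total RNA was taken after 48 h. Both RNAs were hybridised together on 2 Agilent arrays of 60-base probes, the first with control RNA in Cy3 and miR-204 RNA in Cy5, and the dye-swap array with the dyes exchanged.

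Both arrays carried the same pair of conditions and no separate cultures were named, so they were counted as 1 replicate. The 2 values of a gene therefore show agreement between dye orientations and not the spread between cultures, and no difference between the conditions was tested. All ratios below are log2 of the miR-204 signal over the control signal, with the dye-swap array turned the same way. A value below 0 means less signal with the mimic. In bulk RNA, fewer cells with a transcript and less transcript per cell cannot be told apart.

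Actin monomers (G-actin) join into filaments (F-actin) whose growth, branching and breakdown give a cell its shape and its means to move. Profilin feeds monomers to growing ends, capping protein closes ends, the ARP2/3 complex starts branches, formins and Ena/VASP proteins lengthen filaments, and cofilin cuts old ones. LIM kinases hold cofilin inactive by phosphorylation, and p21-activated kinases act upstream of them, so much of this system is set on proteins and is not visible in RNA.

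The microRNA itself was not measured on these arrays. The labels do not say which strand the mimic carried, so the mature RNAs of the hairpin are given with its nearest relative, taken from RefSeq on GRCh38.p14, with the seed (bases 2 to 8) in capitals. hsa-miR-204-5p lies at chr9:70810031-70810052 and hsa-miR-204-3p at chr9:70809993-70810013, both on the minus strand, and hsa-miR-211-5p at chr15:31065095-31065116 on the minus strand.
hsa-miR-204-5p: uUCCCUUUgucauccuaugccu
hsa-miR-211-5p: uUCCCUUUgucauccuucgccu
hsa-miR-204-3p: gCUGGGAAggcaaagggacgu
The 5p RNAs of miR-204 and miR-211 share the seed and 20 of 22 positions, while the 3p RNA has another seed. No target site was searched for in the transcripts of the actin genes.

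Across the arrays, 23159 probes passed the scanner's test for signal well above background for both RNAs on both arrays, that is in 4 channels. The SD of the ratio over all measured gene names was 0.41 for the first array and 0.27 for its dye swap, and the ratios of the 2 arrays were close to unrelated (Pearson r = -0.08, Spearman correlation = -0.07, n = 17230 gene names sharing RNA and slide). Among genes that mark this line, KRT8, KRT18, VIM, NEFL and NEFM each had a probe that passed in all 4 channels, and PAX2 passed in none. PTPRC, CD3E, ALB, CDH5, PECAM1 and MYH7, which mark other cell types, passed in none either, but the muscle gene DES passed in all 4, at processed signals of 39.8 to 82.6.

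No actin cytoskeleton gene differed by 2-fold between the conditions. Of the 45 measured, 0 were lower by 2-fold in the mean with both arrays on the same side, where 0.058% of all gene names were, and 0 were higher, where 0.0929% were. At 1.5-fold the counts were also 0 lower and 0 higher, against 1.01% and 1.34% of all gene names. The means of the 2 arrays ran from -0.42 for MYH10 to 0.38 for CAPZA2, inside the range of -0.47 to 0.49 that held the central 95% of all gene names. In 37 of 45 genes (82.2%) the mean lay within 0.3 of 0, as it did for 83.0% of all gene names. The methods' t-test, run on the 2 channels of each RNA, gave an unadjusted p under 0.05 for 9 of 83 probes of these genes and for 1510 of 23159 probes in all, and for 0 of either after Benjamini-Hochberg adjustment. That test treats the arrays as replicates.

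The arrays often pointed opposite ways. In 27 of the 45 genes (60%) one array gave a ratio above 0 and the other below, where 53.0% of all gene names did so. Another 10 were lower on both arrays (22.2%, against 21.6% of all gene names) and 8 were higher on both (17.8%, against 25.4%). The counts lower on both and opposite lie near the share over all gene names. Signs were counted without a minimum size, here and over all gene names. Dye-swap ratios such as -0.001 for ACTN1, -0.004 for WASF3 and 0.002 for PFN2 therefore counted too. The median ratio of the 45 genes was -0.20 for the first array, 0.002 for its dye swap and -0.05 in the mean, while over all gene names these medians were 0.02, 0.006 and 0.008. Across the 45 genes the 2 arrays ran against each other (Pearson r = -0.35, Spearman correlation = -0.31, n = 45 genes on 1 slide with 1 pair of conditions), so a single array gives no settled direction for most of them.

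**Figure D1:**
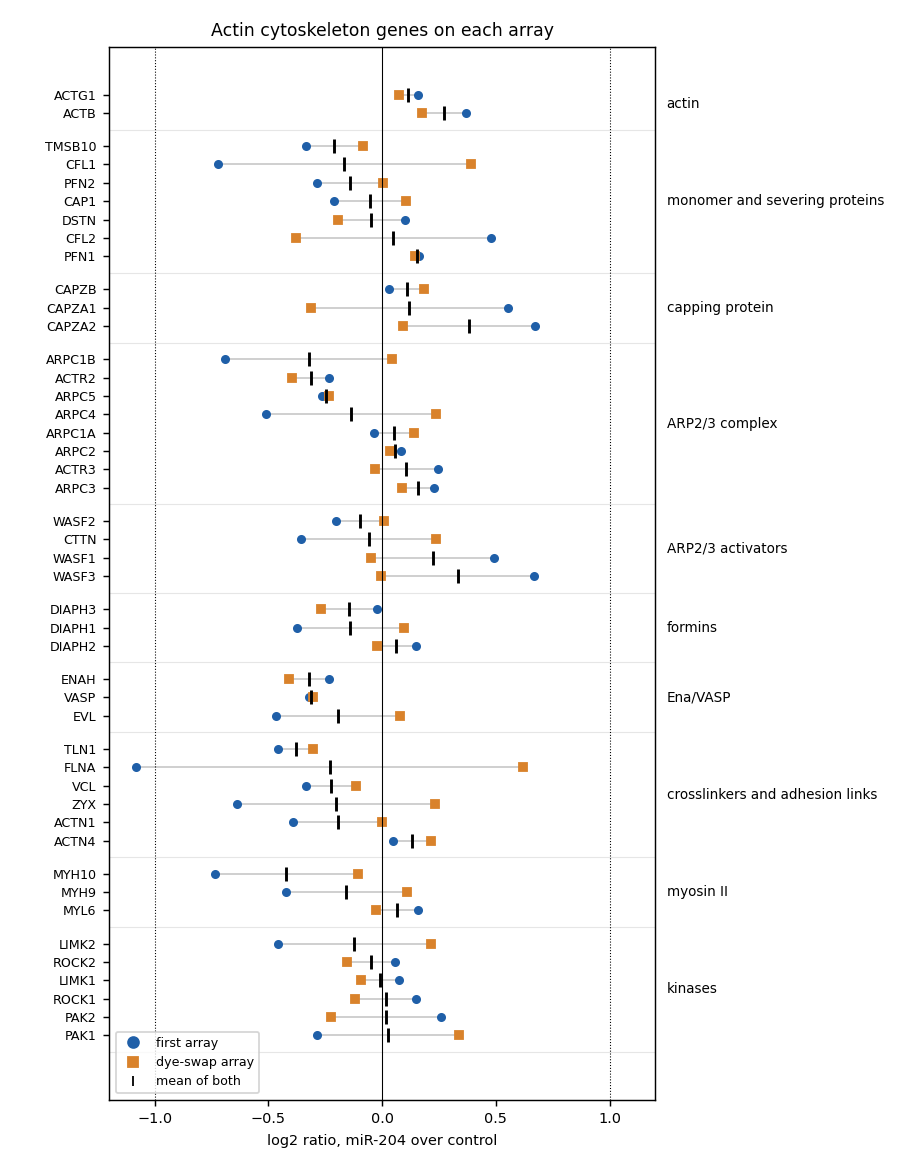
Log2 ratio of miR-204 over control signal (horizontal axis) for the 45 measured actin cytoskeleton genes, grouped by role, with the first array as circles, the dye-swap array as squares, their mean as a bar and 2-fold as dotted lines. The line between a gene's symbols crosses 0 in 27 genes, and FLNA on the first array (-1.08) is the only symbol past 2-fold.

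**Figure D2:**
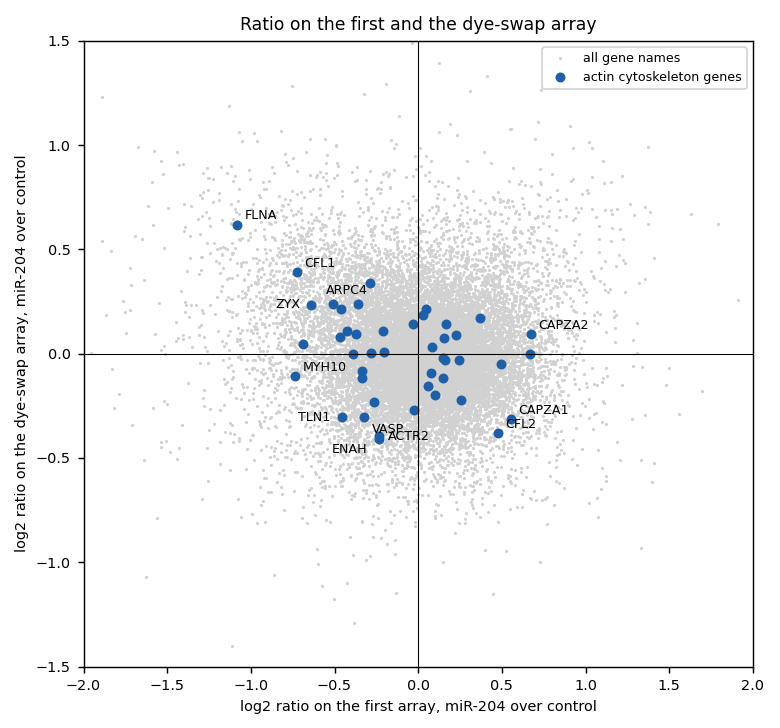
Log2 ratio of miR-204 over control on the first array (horizontal) and the dye-swap array (vertical) for all measured gene names (grey; 18 lie outside the axes) and the actin cytoskeleton genes (blue). Genes in the upper left and lower right, such as FLNA, CFL1, CFL2 and CAPZA1, have opposite signs on the 2 arrays.

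Both cytoplasmic actins were slightly higher with the mimic. ACTB (beta-actin) had normalized log2 signals of 14.74 in control and 15.10 in miR-204 RNA on the first array, and of 14.71 and 14.88 on the dye-swap array, for ratios of 0.37 and 0.17. Its mean, 0.27, lay inside the central range of all gene names. ACTG1 (gamma-actin) gave 15.98 and 16.14, then 16.05 and 16.12, for ratios of 0.16 and 0.07. The brightest ACTG1 probe had opposite signs, 0.31 and -0.11. The proteins are nearly identical, and how far the probes tell their transcripts apart was not tested. The 4 ACTB probes ranged in the mean from 0.16 to 0.42. One of them is spotted 10 times, and its ratio was 0.53 ± 0.034 (SD over 10 spots) on the first array but 0.03 ± 0.032 on the dye-swap array. The gap between the arrays was therefore many times the spread between spots of one array, for a transcript often used as a loading reference.

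The proteins that bind monomers or sever filaments had opposite signs on the arrays in 5 of 7 cases. CFL1, the main non-muscle cofilin, had normalized log2 signals of 11.23 in control and 10.51 in miR-204 RNA on the first array, a ratio of -0.72. On the dye-swap array it had 10.80 and 11.19, a ratio of 0.39. Its relative CFL2 went the opposite way on each array, with 10.53 and 11.01 (ratio 0.48), then 10.73 and 10.35 (ratio -0.38). Averaged over the dyes, CFL1 stood at -0.17 and CFL2 at 0.05. DSTN (destrin), of the same family, had ratios of 0.10 and -0.20. PFN1, the main profilin, had closely matching ratios of 0.16 and 0.14, and PFN2 had -0.28 and 0.002. CAP1, which helps recycle monomers from cofilin, gave -0.21 and 0.11. TMSB10, a thymosin that sequesters monomers, was the only one of the 7 lower on both arrays, with -0.34 and -0.08.

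Among the capping protein subunits, CAPZA2 had the highest mean of all 45 genes. Its normalized log2 signals were 9.17 in control and 9.84 in miR-204 RNA on the first array, then 8.98 and 9.07 with the dyes exchanged, for ratios of 0.67 and 0.09 and a mean of 0.38. Most of that mean came from the first array. A second CAPZA2 probe passed the background test in only 2 of 4 channels and was not counted, and its ratios were 0.90 and 0.28. CAPZA1, the other alpha subunit, gave 10.00 and 10.56 on the first array (ratio 0.55) but 10.01 and 9.69 on the dye-swap array (ratio -0.32). CAPZB, the beta subunit, had 0.03 and 0.19.

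The 8 genes for subunits of the ARP2/3 complex, of which ARPC1A and ARPC1B encode alternative forms of one subunit, did not share a direction: 2 were lower on both arrays, 2 were higher on both and 4 had opposite signs. ARPC5 had matching ratios of -0.26 and -0.23. ACTR2, one of the actin-related subunits that start the branch, had normalized log2 signals of 7.81 and 7.58, then 7.74 and 7.35, for ratios of -0.23 and -0.39. The other actin-related subunit, ACTR3, had 0.24 and -0.03. ARPC2 and ARPC3 were higher on both arrays but by little, with means of 0.06 and 0.16. ARPC1B was at -0.69 on the first array, then 0.04 with the dyes exchanged, its relative ARPC1A at -0.03 and 0.14, and ARPC4 at -0.51 and 0.24.

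All 4 measured activators of the complex had opposite signs. WASF1 and WASF3 (WAVE proteins, which pass signals from Rac to ARP2/3) had 0.49 and 0.67 on the first array but -0.05 and -0.004 on the dye-swap array. WASF2 had -0.20 and 0.01, and CTTN (cortactin, which stabilises branches) had -0.36 and 0.24. WASL (N-WASP) could not be measured. Its single probe failed the background test in each channel, with processed signals of 18.1 in control and 13.0 in miR-204 RNA on the first array, then 9.92 and 5.65 with the dyes exchanged.

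Of the proteins that lengthen filaments, the 3 Ena/VASP genes had a median of -0.31, or -0.13 with the brightest probe of each gene. VASP was the gene whose arrays matched best among the larger ratios. Its normalized log2 signals were 9.63 in control and 9.30 in miR-204 RNA, then 9.45 and 9.14, for ratios of -0.32 and -0.30. ENAH (Mena) had 9.52 and 9.29, then 9.71 and 9.31, for ratios of -0.24 and -0.41. EVL, the third of the family, did not follow on both arrays, with -0.47 and 0.08. The formins had means of -0.14 for DIAPH1, 0.06 for DIAPH2 and -0.15 for DIAPH3, and DIAPH3 alone was lower on both arrays (-0.02 and -0.27). A further DIAPH3 probe passed the background test in 3 of 4 channels and was not counted, with ratios of -1.86 and -0.69. That probe failed in the miR-204 channel of the dye-swap array, and its processed signals were low, 21.9 to 79.2. Where passing in either RNA was enough, it entered through the control RNA alone, which favours a lower ratio. The DIAPH3 mean was then -0.43.

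Among crosslinkers and links to adhesions, 3 of 6 were lower on both arrays and 1 was higher. TLN1 (talin, which ties integrins to actin) had normalized log2 signals of 6.77 and 6.31 on the first array, then 6.72 and 6.41 with the dyes exchanged, for ratios of -0.46 and -0.30. The dimmer TLN1 probe, at processed signals of 39.1 to 74.0, had a mean of -0.50, and the brighter one -0.26. VCL (vinculin), the partner of TLN1, had -0.34 and -0.11. ACTN1 (alpha-actinin) had -0.39 and -0.001, and ACTN4, the only one higher on both, had 0.05 and 0.21. FLNA (filamin A) had the largest gap between arrays of all 45 genes. Its signals were 9.08 in control and 8.0 in miR-204 RNA on the first array, a ratio of -1.08, but 8.40 and 9.02 on the dye-swap array, a ratio of 0.62. FLNA would count as 2-fold lower from the first array alone, and its mean was -0.23, or -0.09 in the authors' table of processed ratios. ZYX (zyxin, a protein of focal adhesions) behaved alike, with 9.39 and 8.75 (ratio -0.64), then 9.18 and 9.41 (ratio 0.23).

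MYH10, a heavy chain of non-muscle myosin II, had the lowest mean of all 45 genes. Its normalized log2 signals were 8.26 in control and 7.53 in miR-204 RNA on the first array, then 8.03 and 7.92 with the dyes exchanged, for ratios of -0.73 and -0.11 and a mean of -0.42, or 1.34-fold lower. As for CAPZA2, most of the mean came from the first array. The MYH10 probes gave 0.09, 0.06 and -0.48 on the dye-swap array, so the fall there came from the last of these alone. MYH9, the other heavy chain, had -0.42 and 0.11, and MYL6, a light chain, had 0.16 and -0.03.

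All 6 kinases had opposite signs on the 2 arrays, with means between -0.12 for LIMK2 and 0.02 for PAK1. PAK1 had -0.29 and 0.34, and PAK2, also activated by Rac and Cdc42, had 0.26 and -0.22. LIMK1 had 0.07 and -0.09 and LIMK2 had -0.46 and 0.22. ROCK1 had 0.15 and -0.12 (mean 0.02), but 1 of its 3 probes, at chr18:111072-111131 (hg18), lies apart from the others at chr18:16784230-16784289 and chr18:16789130-16789189 and on the other strand. Without it the ROCK1 mean was -0.03. ROCK2 had 0.06 and -0.15.

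In all, 5 of 45 genes were lower by at least 0.3 in the mean with both arrays on the same side (11.1%, against 6.19% of all gene names): MYH10, TLN1, ENAH, ACTR2 and VASP. Only CAPZA2 was higher by that rule (2.22%, against 7.82%). With no replicate these shares carry no test. The list depended on the processing: after normexp background correction and loess, VASP was the only lower gene left, with MYH10 at -0.30, ENAH at -0.28, TLN1 at -0.24 and ACTR2 at -0.11. In that setting 4.02% of all gene names passed on the lower side. With mean signals without background correction and loess, 2 remained, MYH10 and VASP. With the brightest probe of each gene, VASP and ARPC4 were on the lower side, while ENAH stood at -0.13. MYH10 was at -0.33 there, but with opposite signs on the arrays. With the median over probes, MYH10 and ENAH dropped out. On the higher side, ACTB joined CAPZA2 with the brightest probe. After quantile normalization of the ratios no gene was left on that side, where CAPZA2 stood at 0.46 but without a rise on both arrays. The lower genes in that setting were ARPC1B, MYH10, TLN1 and VASP. Just outside the rule before these changes, ARPC5 stood at -0.25 and ACTB at 0.27. Also before them, ARPC1B (-0.32) and WASF3 (0.33) passed 0.3 in the mean but had opposite signs.

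The gene means hid differences between probes of one gene. Of 27 genes with over 1 measured probe, 4 had probes 0.5 or more apart in the mean, ENAH, ACTR2, ARPC4 and DIAPH2. The ENAH probe nearest the gene's start, at chr1:223809245-223809304 (hg18, minus strand), had ratios of -1.18 and -0.73 and a mean of -0.96. The other ENAH probes, at chr1:223749919-223749978, chr1:223747246-223747305 and chr1:223741717-223741776, had means of -0.13, -0.03 and -0.17. The first is listed under the transcript NM_018212 and the others under NM_001008493. ACTR2 was also split, under a single transcript, NM_001005386, but its lower probe was dim. That probe had processed signals of 40.2 to 94.8, against 314 to 711 for the ENAH probe nearest the start. The dim ACTR2 probe, at chr2:65327282-65327341, had -0.92 and -0.51 (mean -0.71). The other, at chr2:65350393-65350452, toward the 3′ end, had 0.45 and -0.28 (mean 0.09), at signals of 477 to 1007. With the brightest probe in place of the average, ACTR2 was at 0.09, so its place among the lower genes rests on 1 probe. The place of ENAH likewise rests on the probe nearest its start. The means of its other probes fell short of 0.3, and the median over its probes was -0.19. DIAPH2 ran the other way, with 0.41 and 0.32 for the upstream probe, listed under NM_007309, and -0.12 and -0.37 for the downstream probe, listed under NM_006729. The ARPC4 probes had means of -0.39 and 0.11, at low processed signals of 34.2 to 93.3. Whether these probes lie in coding or untranslated sequence was not determined, since no gene models of hg18 were used.

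**Figure D3:**
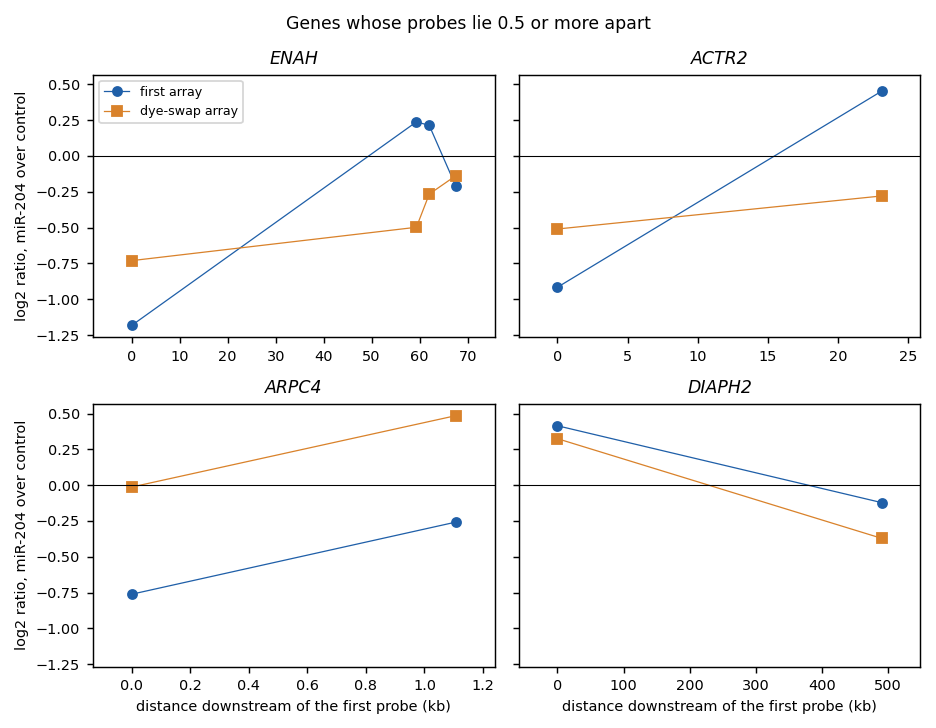
Log2 ratio of miR-204 over control (vertical) for each measured probe of ENAH, ACTR2, ARPC4 and DIAPH2 against genomic distance in kb downstream of the gene's first probe, introns included, on the first (circles) and the dye-swap array (squares). The first probe is the lowest on both arrays in ENAH, ACTR2 and ARPC4, and the highest on both in DIAPH2.

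Probe position was then compared over all multi-probe genes with RefSeq mRNA accessions, a comparison chosen after these values were seen. In 22 of 27 actin cytoskeleton genes (81.5%) the most upstream probe had a lower mean ratio than the most downstream probe, with a median difference of -0.15. Over all 3703 gene names of this kind the share was 71.2% and the median difference -0.10. By array, 18 of the 27 genes (66.7%) showed it on the first, with a median difference of -0.36, and 14 (51.9%) on the dye swap, with -0.04. Over the 3703 gene names the shares were 72.8% and 51.0%, and these medians were -0.22 and -0.006. On single arrays the pattern moved with signal strength. In 23 of the 27 genes, and in 2708 of the 3703 gene names, the upstream probe was the dimmer one. Of the 23, 16 showed the pattern on the first array, but 10 with the dyes exchanged. In the 4 genes with the brighter probe upstream, these counts were 2 and 4. Over the 995 gene names with the brighter probe upstream, 66.8% showed it on the first array, 63.9% with the dyes exchanged, and of the 2708 with the dimmer probe upstream 75.0% and 46.3%. In the mean of the arrays the shares were nearly equal, 70.8% of the 995 and 71.4% of the 2708. Among the 27 genes, 4 of 4 and 18 of 23 showed it in the mean. The part of signal strength in the pattern was not tested further. In the mean MYH10 and TLN1 also followed it, with upstream means of -0.58 and -0.50 and downstream means of -0.33 and -0.26. For MYH10 this came from the dye-swap array alone (-0.48 upstream, 0.09 downstream). The first array went against it, with -0.68 upstream and -0.76 downstream. All measured probes of MYH10 and TLN1 were below 0 in the mean. So were those of ACTN1, VCL, CFL1, DIAPH1, ENAH, EVL, MYH9 and ROCK2, whereas the probes of ACTB, ACTG1, ACTN4, ACTR3, MYL6 and PFN1 were all above 0.

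**Figure D4:**
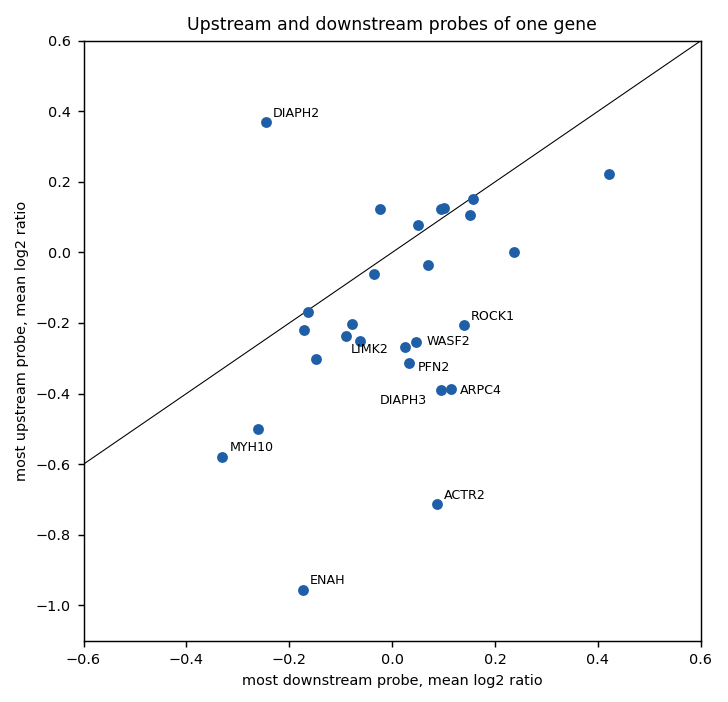
Mean log2 ratio of the most upstream probe (vertical) against the most downstream probe (horizontal) of 27 actin cytoskeleton genes, 1 point a gene, with the line of equal values. The 22 points below the line have the lower ratio upstream, and DIAPH2 is the farthest above it.

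**Figure D5:**
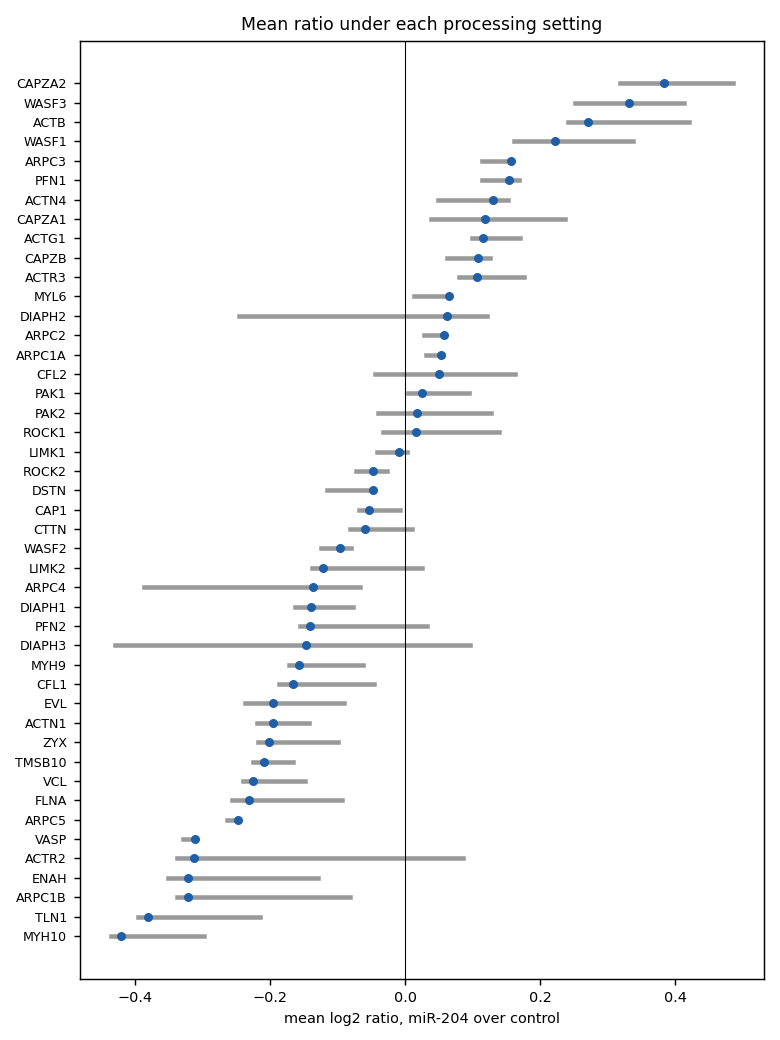
Points give the mean log2 ratio of miR-204 over control for each of the 45 genes. Bars run from the lowest to the highest mean over the points' own processing and 12 other ways of processing both arrays (11 others for ARPC3). The bars of 35 genes stay on one side of 0, including MYH10, TLN1, ENAH and VASP below it and CAPZA2 above it, and the bars of 10 genes, ACTR2 among them, cross it.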

How the data were processed

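The deposited Agilent scanner files held, per spot, processed signal intensity in both dyes, a log10 ratio (red over green) and background, saturation and outlier calls, which the authors made with Feature Extraction 9.5.3.1, on probes placed on hg18. The authors also deposited a table of log2 ratios, used as an alternative. Each gene is the average of its probes with signal well above background for both RNAs on both arrays (a majority of a probe's spots), after control spots and 128 probes with outlier calls were left out. The 4 channels of log2 processed signal were quantile normalized (limma 3.58.1, R 4.3.3), and the script was tested on simulated data. Probes were named by the files' gene names: 83 of 87 probes of these genes were measured, none was saturated, and 79 of the 83 had an accession that RefSeq (GRCh38.p14) lists under the same symbol. Strand was read from the order of probe coordinates. The genes and lists were chosen with earlier results of these data known. A further list of pathway genes is not reported here. Per-array values were given by rule for genes at 0.3 or more with matching signs, the 5 with the largest gap between arrays, close paralogs and genes with probes 0.5 or more apart; the others are given more briefly. No depth applies to arrays, and their number limits the precision. Alternatives were other backgrounds, normalizations, filters and probe summaries, each array alone, and the methods' t-test.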

Additional observations from a re-analysis of the deposited data

How the results depend on the processing

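Under 12 other settings for both arrays (11 for ARPC3), 35 of the 45 genes kept the sign of their mean. The other 10, CFL2, PFN2, ACTR2, CTTN, DIAPH2, DIAPH3, PAK2, LIMK1, LIMK2 and ROCK1, changed sign under at least 1 setting. Quantile normalization of the ratios in place of the channels left 5 genes higher on both arrays in place of 8 and put 13 lower on both in place of 10. With the brightest probe of each gene these counts were 7 and 13. Leaving out 1 array moved the median of the 45 genes between -0.20 and 0.0023 and the count lower by 2-fold between 0 and 1, the 1 being FLNA on the first array alone. One setting, probes matched to their gene by RefSeq accession, was chosen after seeing the data and gave 11 genes lower and 7 higher on both arrays. No paired analysis was possible because both arrays hold one pair of conditions.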
